A study of Homo sapiens with 9 samples.

Results

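The genes described here are 10 regulators of the step from G1 to S phase, CDKN1A, CDKN1B, CCND1, CCND2, CCND3, CDK4, CDK6, CDC25A, WEE1 and CDC34. They were taken by gene symbol from the array's annotation because several are known targets of let-7 or miR-17, and they are 10 of the 13391 named genes measured. Expression was read on 9 Toray 3D-Gene arrays of 1 colour, and the study asked how methylation of a miRNA alters its effect. All arrays came from RKO, a human colorectal cancer line, in which exon 5 of DICER, whose enzyme releases mature miRNAs from their precursors, was disrupted, so the control cells carry this disruption too. Double-stranded RNA oligonucleotides were delivered by lipofection and total RNA was taken 48 h later. The labels give 1 array to the negative control oligonucleotide and 1 each to the native and the methylated form of let7a, miR-17, miR-21 and miR-200c. They name neither the methylated base nor the number of cell clones or cultures.

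Cells pass from G1 into S phase when D-type cyclins activate the kinases CDK4 and CDK6, which phosphorylate the retinoblastoma protein and so release E2F transcription factors. The inhibitors p21 (CDKN1A) and p27 (CDKN1B) restrain cyclin-dependent kinases, WEE1 adds an inhibitory phosphate to them and CDC25A removes it. CDC34 is the ubiquitin-conjugating enzyme that works with SCF ligases, which mark cell-cycle regulators for degradation. A miRNA lowers transcripts mainly through pairing of its seed, bases 2 to 8, with sites in their 3′ untranslated regions. The let-7 family is known to repress CDC34, CDC25A, CDK6 and D cyclins, and the miR-17 family to repress CDKN1A, CCND1 and WEE1.

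The mature sequences of the 4 miRNAs are shown because the seed decides which transcripts each can pair with. They are RefSeq's, with the seed in capitals, and the oligonucleotides themselves may differ in their passenger strand and modified base, which the labels do not give. The arm shown is the one usually taken as the active strand.
let7a: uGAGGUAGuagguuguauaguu
miR-17: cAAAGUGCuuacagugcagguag
miR-200c: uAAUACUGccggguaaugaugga
miR-21: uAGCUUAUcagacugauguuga
On build GRCh38.p14 the let7a sequence is encoded on chromosomes 9 (94175962 to 94175983), 11 (122146568 to 122146589) and 22 (46112752 to 46112773). miR-17 lies on chromosome 13 (91350618 to 91350640), miR-200c on chromosome 12 (6963742 to 6963764) and miR-21 on chromosome 17 (59841273 to 59841294). No seed is shared: the let7a and miR-17 seeds agree at 3 of 7 positions, and the other pairs at 1 or 2. A let7a seed pairs with the letters CUACCUC and a miR-17 seed with GCACUUU. In RefSeq 11 mature human miRNAs carry the let7a seed and 8 the miR-17 seed. Untranslated regions of the 10 genes were not analysed here.

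The 10 genes were detected on all 9 arrays, with raw intensities 2.44 to 69.0 times the detection limit of their array. Detected probes numbered 16975 to 19110 per array. Of 9 colon epithelial markers 8, EPCAM and CDX2 among them, were detected on every array and KRT19 on 1. Their summed raw intensity was 1927 to 4038 per array and 3214 on the control. It was lowest on let7a methylated (1927), followed by miR-21 methylated (2415) and miR-17 native (2452), and the keratin gene KRT18 gave 1132, 1539 and 1693 of these against 2240 on the control. The pan-leukocyte marker PTPRC was detected on none, although 4 of the 5 blood markers, led by CD68, were detected on all 9, with a sum of 7167 to 11473. That sum was lowest on let7a methylated (7167) and miR-17 native (7328), and CD68 alone gave 6977 and 7137 of it. Of 7 fibroblast and endothelial markers only DCN was detected on all 9, and COL1A1, COL1A2 and LUM on none. Their summed intensity was 386 to 506. These sums are raw and not normalized between arrays, and the arrays differed in brightness. The median intensity of detected probes was 142 on the control, 107 on let7a methylated, 108 on miR-21 methylated and 98.2 on miR-17 native. Sums did not follow this median alone. With a median of 110, miR-200c methylated had the highest sums of colon and blood markers, 4038 and 11473. With a median of 109, let7a native had 2897 and 9550. The part of brightness in the low sums was not tested. The part of these markers in the differences described next was not tested.

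Native and methylated arrays of one miRNA did not always resemble each other. With the mean of the 4 native arrays taken from every native value, and likewise for the methylated arrays, the pair of miR-200c correlated at 0.70 (Pearson's r across genes) and that of miR-21 at 0.46. The let7a pair was at -0.22 and the miR-17 pair at -0.17. Let7a methylated correlated instead with miR-17 native (0.69), and miR-17 methylated with let7a native (0.56). These values describe the arrays, since genes are not independent replicates. Samples keep their labels throughout. These methylated-labelled arrays of let7a and miR-17 are called the discordant arrays, and results that rest on them are given with and without them.

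The widest differences were those of CDC34, CDKN1A and CCND1. CDC34 was low on let7a native and on the array that bears the miR-17 methylated label, while CDKN1A was low on miR-17 native and on the array that bears the let7a methylated label. CCND1 shared the low values of CDKN1A, lay below the control with miR-200c in either form and lay above it with miR-21. Among 80 values (10 genes on 8 arrays), 10 lay at least 1.5-fold below the negative control (12.5%, against 1.59% of all values over 16072 features) and 1 at least 1.5-fold above it (against 1.04%). With 1 array a group these differences have no replicate check, all 8 share the control array, and the genes were chosen with earlier results of these data known. In RNA from whole cultures, fewer cells of a kind and less RNA per cell cannot be told apart.

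**Figure D1:**
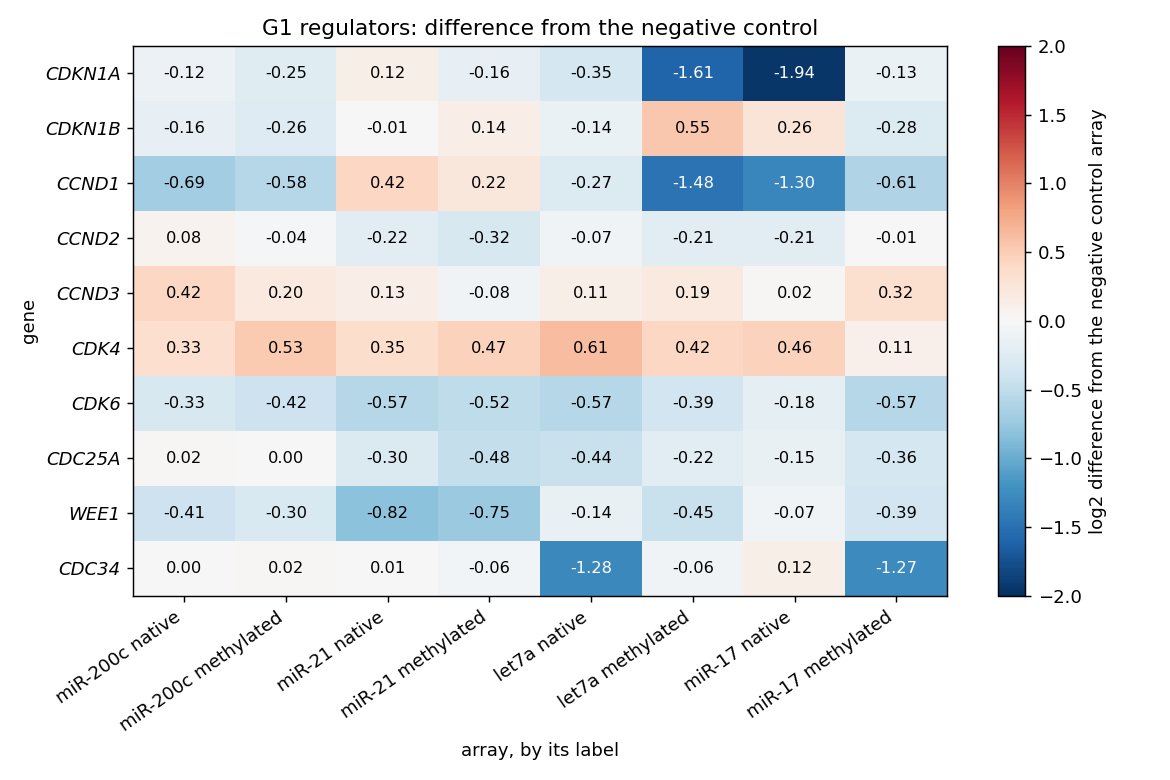
Log2 difference of each of the 10 genes (rows) from the negative control array on the 8 miRNA arrays (columns, by label), with blue below and red above the control. The darkest cells are CDKN1A on miR-17 native (-1.94) and let7a methylated (-1.61), CCND1 on the same arrays, and CDC34 on let7a native (-1.28) and miR-17 methylated (-1.27).

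CDKN1A encodes p21, a p53-induced inhibitor of cyclin-dependent kinases. Its log2 intensity was 11.41 on the control, 11.29 and 11.17 on miR-200c native and methylated, 11.53 and 11.26 on miR-21 native and methylated, and 11.07 on let7a native. It was 9.81 on the array labelled let7a methylated, 9.47 on miR-17 native and 11.28 on miR-17 methylated. So 2 arrays lay under 10 and apart from the other 7, which spanned 11.07 to 11.53. From the control, miR-17 native was 3.84-fold lower (-1.94), the fifth lowest of 16072 features on that array, of which 1.98% were at least 1.5-fold lower. The array labelled let7a methylated was 3.05-fold lower (-1.61), the sixth lowest, against 2.1% of features past the fold. The arrays of let7a native and miR-17 methylated, by label, were at -0.35 and -0.13.

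The p53 targets as a list did not follow CDKN1A. Of 19 measured targets, chosen without CDKN1A, 1 lay at least 1.5-fold below the control on miR-17 native and 0 on the array labelled let7a methylated. Of all features, 1.98% and 2.1% did on these arrays. At least 1.5-fold above the control lay 1 and 2 of the targets, against 1.04% of all values pooled over the 8 arrays. Their medians on these arrays were 0.16 and 0.12, against medians of 0.01 for all features on both. BTG2 lay below the control on both, at -0.48 and -0.38, and likewise on let7a native (-0.56) and miR-17 methylated (-0.59). The growth factor gene GDF15 was at 0.55 and 0.70 and the DNA repair gene DDB2 at 0.70 and 0.69. DDB2 was likewise above the control on let7a native (0.90) and miR-17 methylated (0.56), where CDKN1A was at -0.35 and -0.13. The death receptor gene FAS, the lowest of the list on miR-17 native at -0.66, was lower still on let7a native (-1.02) and, at -1.69, on the array labelled miR-17 methylated, where CDKN1A was near the control.

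CDKN1B encodes p27, which binds cyclin E and cyclin D complexes. It was dim, at log2 intensities from 6.95 to 7.77 with 7.23 on the control. Its highest values were on the array labelled let7a methylated (0.55 from the control) and on miR-17 native (0.26), the arrays on which CDKN1A was lowest. On the other 6 arrays it lay between -0.28 and 0.14. None of the 8 differences reached 1.5-fold with the settings used. On the array labelled let7a methylated it passed at 0.67 with an offset of 16 and at 0.78 with the blank mean subtracted. There it was at 0.84 in the authors' deposited table and at 0.47, short of the fold, with median scaling.

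CCND1, the gene of cyclin D1, was at 11.13 on the control, 10.44 and 10.55 on miR-200c native and methylated, and 11.55 and 11.35 on miR-21 native and methylated. It was 10.86 on let7a native, 9.65 on the array labelled let7a methylated, 9.83 on miR-17 native and 10.52 on the discordant array labelled miR-17. Its 2 lowest arrays are thus those of CDKN1A. From the control these were 2.79-fold lower on the array labelled let7a methylated (-1.48) and 2.47-fold lower on miR-17 native (-1.30). Smaller differences on miR-200c native (-0.69, where 2.78% of features lay at least 1.5-fold below) and on the discordant array labelled miR-17 (-0.61, against 1.33%) also passed 1.5-fold, and miR-200c methylated, at -0.58, stood just short of it (2.27% of features passed there). That last value was -0.59 and past the fold with median scaling, with the blank mean subtracted and with an offset of 16, and -0.13 in the authors' deposited table. On miR-21 native and methylated CCND1 was 0.42 and 0.22 above the control.

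The other D-type cyclin genes did not share this pattern. CCND2 ranged from 10.42 to 10.82 over the 9 arrays and lay between -0.32 and 0.08 from the control. It was lowest on miR-21 methylated and highest on miR-200c native. CCND3 ranged from 9.58 to 10.07 and lay between -0.08 and 0.42 from the control, with its highest value on miR-200c native. Neither reached 1.5-fold on any array with the settings used. In the authors' deposited table CCND3 was at 0.69 on miR-200c methylated, where the median difference over all features of that table was 0.548.

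CDC34 was at 10.94 on the control, 10.94 and 10.96 on miR-200c native and methylated, and 10.96 and 10.88 on miR-21 native and methylated. It was 9.66 on let7a native, 10.88 on the array labelled let7a methylated, 11.06 on miR-17 native and 9.67 on the discordant array labelled miR-17. The values fall into a tight set of 7 arrays between 10.88 and 11.06 and 2 arrays near 9.7. From the control, let7a native was 2.44-fold lower (-1.28), the 17th lowest of 16072 features on that array, of which 1.1% were at least 1.5-fold lower. The array labelled miR-17 methylated was 2.41-fold lower (-1.27), the 11th lowest. On the array labelled let7a methylated the difference was -0.06, about the size seen with miR-21 methylated.

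**Figure D2:**
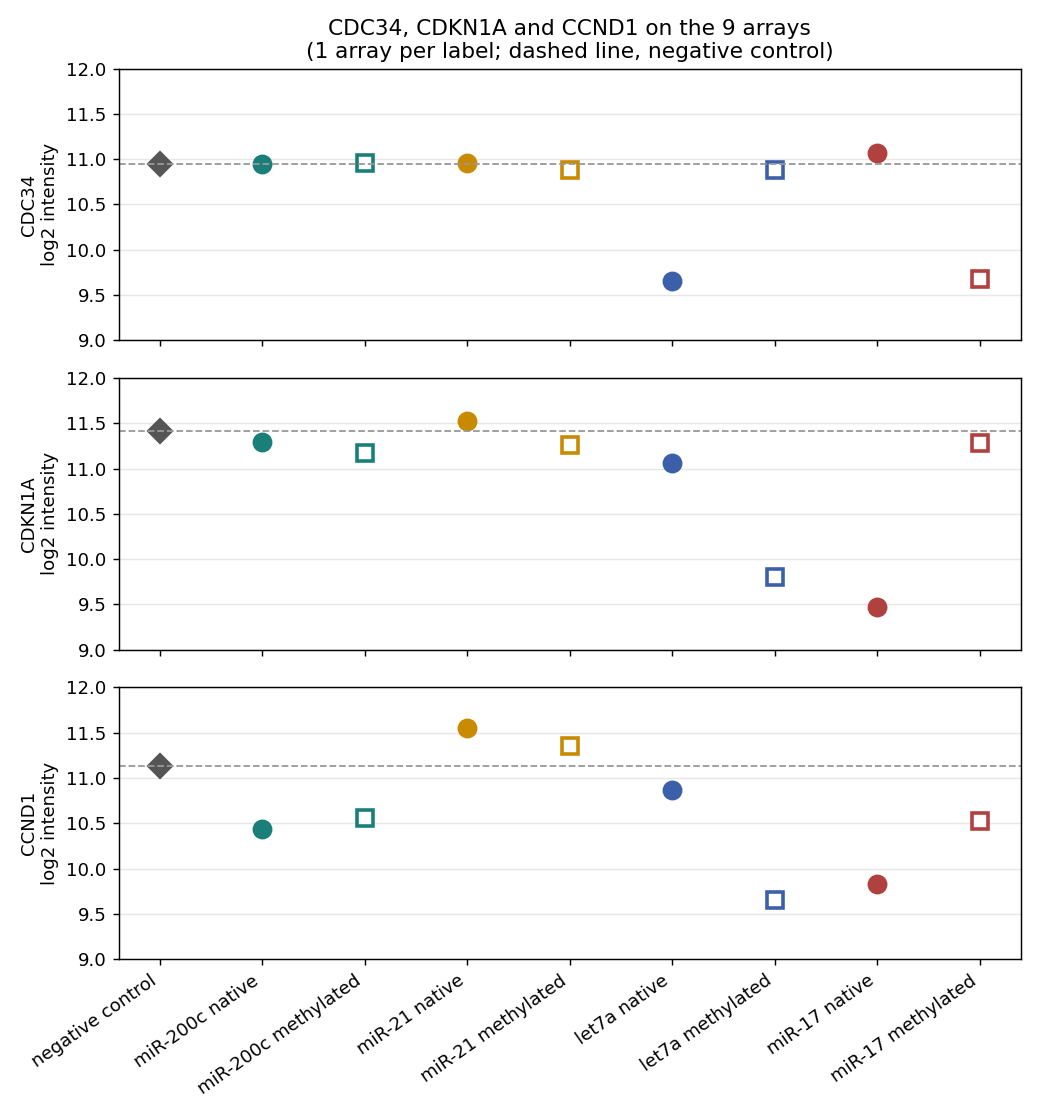
Normalized log2 intensity (vertical axes) of CDC34, CDKN1A and CCND1 on each of the 9 arrays (horizontal axis, by label), with filled circles for native arrays, open squares for methylated arrays and a diamond and dashed line for the negative control. CDC34 is near 9.7 only on let7a native and miR-17 methylated, and CDKN1A is under 10 only on let7a methylated and miR-17 native.

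By the brighter of the 2 CDK4 probes, the kinase genes CDK4 and CDK6, partners of the D cyclins, lay on opposite sides of the control. CDK6 was at 9.79 on the control and between 9.22 and 9.61 on the 8 miRNA arrays, so it was lower on all 8, with differences from -0.57 to -0.18 and a median of -0.47. Let7a native (-0.57), miR-21 native (-0.57) and, among discordant arrays, miR-17 methylated (-0.57) were lowest, each just short of 1.5-fold. With the blank mean subtracted they were past it, at -0.62, -0.62 and -0.61, and with an offset of 16 at -0.60 each. Short of it stayed let7a native in the authors' deposited table (-0.57) and miR-17 methylated with median scaling (-0.55). CDK6 and WEE1 were the 2 of the 10 genes below the control on every miRNA array, a pattern that 6.91% of all features showed. In the authors' deposited table CDK6 was instead at 0.04 on miR-200c methylated and 0.02 on miR-17 native, and WEE1 at 0.03 and 0.08. On these arrays the median difference from the control over the 16279 features kept from that table was 0.548 and 0.257, although its overall median is the same on every array.

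CDK4 was measured by 2 probes that disagreed. The brighter one was at 10.65 on the control and from 10.75 to 11.26 on the miRNA arrays. It was above the control on all 8, as were 11.2% of all features, with let7a native highest at 0.61 (0.933% of features were at least 1.5-fold higher there). The other probe ranged from 10.06 to 10.30 with 10.25 on the control, and its differences lay between -0.19 and 0.05. A higher CDK4 level thus rests on 1 probe.

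Of the enzymes that set the inhibitory phosphate of cyclin-dependent kinases, the kinase WEE1 was lowest with miR-21. It was at 7.89 on the control, 7.47 and 7.59 on miR-200c native and methylated, 7.07 and 7.14 on miR-21 native and methylated, and 7.74 on let7a native. It was 7.44 on the array labelled let7a methylated, 7.82 on miR-17 native and 7.50 on the discordant array labelled miR-17. Both miR-21 arrays thus lay below all other arrays. The difference from the control was -0.82 on miR-21 native (1.76-fold, the 20th lowest feature, with 0.411% of features past the fold) and -0.75 on miR-21 methylated (1.68-fold, against 0.765%). WEE1 was dim. With the mean of the blank spots subtracted in place of normexp its differences on these arrays were -1.19 and -1.07, and in the authors' deposited table -1.25 and -1.04.

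CDC25A, the phosphatase that opposes WEE1, was at 7.65 on the control and from 7.18 to 7.67 on the miRNA arrays. It was lowest on miR-21 methylated (-0.48) and let7a native (-0.44), followed by the array labelled miR-17 methylated (-0.36) and miR-21 native (-0.30). On the miR-200c arrays it stood at 0.02 and 0.00. No value reached 1.5-fold with the settings used. With the blank mean subtracted, miR-21 methylated (-0.70) and let7a native (-0.64) passed it, as they did in the authors' deposited table (-0.67 and -0.62). With median scaling they did not (-0.57 and -0.52).

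Native and methylated arrays were then set side by side for each miRNA. For miR-200c and miR-21 no gene of the 10 differed by 1.5-fold, and the largest gaps were 0.22 and 0.27 on the log2 scale. Of all features, 0.0933% were at least 1.5-fold lower and 0.541% higher for miR-200c, and 0.28% lower and 0.112% higher for miR-21. For let7a, 4 of 10 did: CDKN1A (-1.26) and CCND1 (-1.21) were lower and CDC34 (1.22) and CDKN1B (0.68) higher on the array labelled methylated, against 2.46% of all features lower and 1.74% higher. For miR-17, CDKN1A (1.81) and CCND1 (0.70) were higher and CDC34 (-1.39) lower on the array labelled methylated, against 2.41% of all features higher and 1.54% lower. The directions for CDKN1A, CCND1 and CDC34 were thus opposite in the let7a and the miR-17 pair, a difference that was not tested. Without the discordant arrays, neither pair gives a value. The median absolute gap over the 10 genes was 0.11 for miR-200c, 0.13 for miR-21, 0.26 for let7a and 0.37 for miR-17, against 0.06, 0.06, 0.10 and 0.09 over all features.

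**Figure D3:**
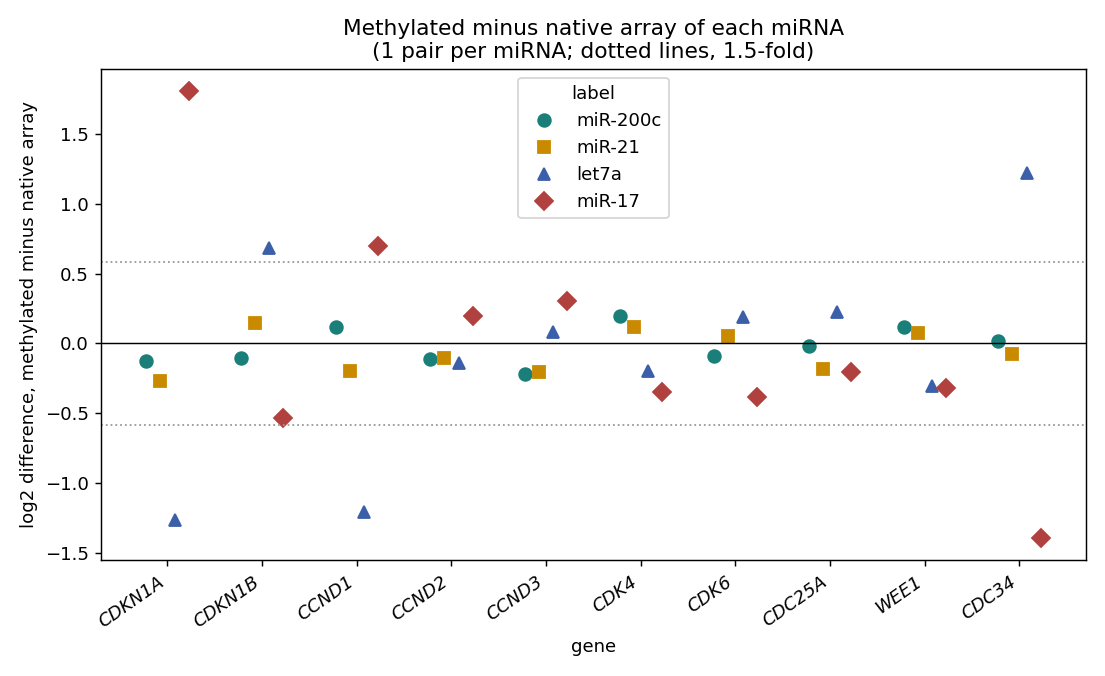
Log2 difference of the methylated minus the native array (vertical axis) for the 10 genes (horizontal axis), with 1 point for each miRNA and dotted lines at 1.5-fold. Points of miR-200c and miR-21 stay between the dotted lines, while those of let7a and miR-17 lie on opposite sides of 0 for CDKN1A, CDKN1B, CCND1 and CDC34. They do so between the dotted lines for CDC25A, CCND2 and CDK6 as well.

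The design allows 1 test, an additive limma model of miRNA and form fitted to the 8 miRNA arrays. No gene of the 10 passed an adjusted p of 0.05 in any of its 5 contrasts. Over all features, 3.09% passed for miR-200c against the mean of the other 3 miRNAs and 0% for miR-21, let7a, miR-17 and methylated minus native. The 497 features of miR-200c became 2 without miR-200c native, 5 without miR-200c methylated and 7 with 1 of the miR-21 arrays left out, whichever it was, and 912 without let7a native. At an unadjusted p under 0.05 there were 2821 features (17.6%) for miR-200c, 1139 for miR-21, 1030 for let7a, 982 for miR-17 and 108 for methylated minus native. By unadjusted p the lowest among the 10 were WEE1 with miR-21, at -0.49 (SE 0.12, n = 2 against 6 arrays, limma unadjusted p = 0.00463, adjusted p = 0.463), and CCND1 with miR-21, at 1.14 (SE 0.33, unadjusted p = 0.0105, adjusted p = 0.508). The lowest adjusted p was that of CDC25A with miR-200c, at 0.33 (SE 0.11, unadjusted p = 0.0168, adjusted p = 0.169). Both miR-21 arrays lay on the named side of all 6 others for WEE1 and CCND1, and both miR-200c arrays for CDC25A.

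In this model CDC34 with let7a was at -0.48 (SE 0.42, adjusted p = 0.890) and CDKN1A with miR-17 at -0.64 (SE 0.51, adjusted p = 0.855). Residual SDs, as moderated by limma toward its intensity trend, were 0.62 for CDKN1A, 0.52 for CDC34 and 0.40 for CCND1. They were above the moderated SDs of 99.9%, 99.7% and 99.2% of all features. Methylated minus native over the 4 miRNAs was at 0.04 for CDKN1A (SE 0.44) and -0.06 for CDC34 (SE 0.37), each with an adjusted p of 0.999954.

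**Figure D4:**
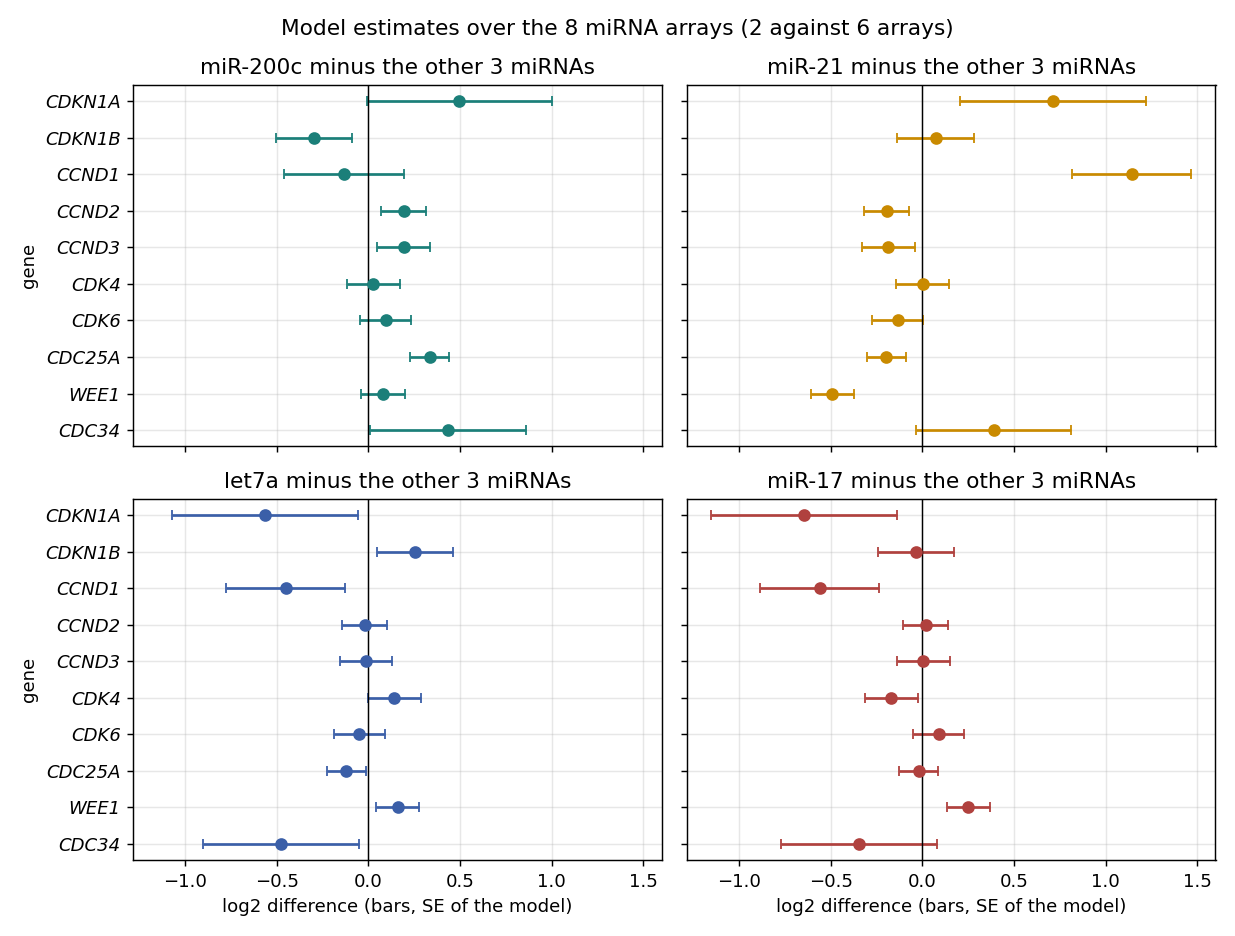
Estimates of the limma model (horizontal axes, log2 difference of 1 miRNA from the mean of the other 3, 2 against 6 arrays) for the 10 genes (vertical axes), with bars for the standard error. CDKN1A, CCND1 and CDC34 have the widest bars, and WEE1 and CCND1 with miR-21 lie farthest from 0 relative to theirs.

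Without the 2 discordant arrays, more of the 10 genes passed. That fit has 1 residual degree of freedom, and let7a native and miR-17 native, then alone, were assumed to vary like the other arrays. The arrays left out were chosen from these same data, because they did not resemble their native partners. They differ from these partners in CDC34, CDKN1A and CCND1, so leaving them out takes that disagreement out of the model's spread. The p-values of this fit are therefore no independent check on these genes. For let7a, CDC34 was lower by the test (-1.33, SE 0.15, limma adjusted p = 0.00238), 1 of 10 against 3.22% of features. For miR-17, CDKN1A was lower (-1.82, adjusted p = 0.000337), CCND1 lower (-1.12, adjusted p = 0.0041) and WEE1 higher (0.39, adjusted p = 0.0488), 3 of 10 against 6.48%. For miR-21, WEE1 was lower (-0.63, adjusted p = 0.00508) and CCND1 (1.07, adjusted p = 0.00398) and CDKN1A (0.87, adjusted p = 0.00828) higher, 3 of 10 against 1.82%. For miR-200c, CDKN1A (0.65, adjusted p = 0.0062) and CDC25A (0.37, adjusted p = 0.0153) were higher and CDKN1B lower (-0.28, adjusted p = 0.0483), 3 of 10 against 14.8%. CDKN1A was within 0.25 of the control on all 4 of the miR-200c and miR-21 arrays, so its higher values there are relative to miR-17 native. Likewise WEE1 was at -0.07 from the control on miR-17 native, and at -0.82 and -0.75 on the miR-21 arrays. CDC25A was at 0.02 and 0.00 from the control on the miR-200c arrays. The higher values of WEE1 and CDC25A are thus relative to lower values on the other arrays, and neither was raised above the control by 1.5-fold. Methylated minus native called 0 of the 10, with 0.0187% of features past the threshold and 3 features in all.

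Of 35 other genes of the G1 to S step, all measured, 280 values were set against the control. At least 1.5-fold lower lay 9 of them (3.21%, against 1.59% of all values) and 11 higher (3.93%, against 1.04%), of which MNAT1 gave 8, and the list's median per array was between -0.05 and 0.07. CDKN2B, the gene of the CDK4 and CDK6 inhibitor p15, was lowest on the array labelled let7a methylated (-1.08), miR-200c methylated (-1.01), miR-17 native (-0.92) and miR-200c native (-0.84). Like CCND1 it stood near or above the control with miR-21, at 0.01 native and 0.22 methylated. CCNA2, the S phase cyclin gene, was highest on miR-17 native (1.11) and on the array labelled let7a methylated (1.003), where CDKN1A was lowest, and lay between -0.22 and 0.24 on the other 6. The licensing factor gene CDT1 was the lowest of the list on let7a native, at -0.64. In the limma model 1 of the 35 passed for miR-200c, on the lower side, against 3.09% of all features, and 0 in the other contrasts, where 0% of all features passed.

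Genes whose differences from the control over the 8 miRNA arrays came closest to those of CDC34, CDKN1A and CCND1, the 3 genes that spanned at least 1 log2 unit, were sought among 12620 named genes detected on all 9 arrays. Closest to CDC34 by mean absolute difference were GEMIN7 (0.15), ABT1 (0.16) and CASP4 (0.16). Their values were -0.93, -0.96 and -0.81 on let7a native, and -0.76, -0.99 and -1.15 on the discordant array labelled miR-17. Closest to CDKN1A were HN1 (0.16), the proton pump subunit gene ATP6V0E1 (0.20) and the mannose 6-phosphate receptor gene M6PR (0.22), at -1.522, -1.498 and -1.682 on miR-17 native and -1.33, -1.45 and -1.77 on the array labelled let7a methylated. For CCND1 they were SEMA3C (0.16), TRIM7 (0.17) and the ephrin gene EFNB2 (0.21). SEMA3C and TRIM7 were above the control on both miR-21 arrays and EFNB2 below it.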

How the data were processed

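Per the file headers, the deposited scanner files give spot intensity at 635 nm (Cy5) as raw medians, without background subtraction. The authors' deposited table of processed intensity, linear and with a median of 25 per array, was an alternative only; its making is not described in the sources used here. Arrays were grouped by title. The 2996 control spots and 9 marked probes were removed. Intensities were corrected with limma's normexp (limma 3.58.1, R 4.3.3, offset 50, which shrinks differences of dim genes), quantile normalized and put on a log2 scale. Detection meant exceeding the blank spots' mean by 2 SD (2680 blanks per array), and 17684 probes passed on 5 or more arrays. Taking each gene's brightest probe gave 16072 features. Of 20236 probes with 1 symbol, 2899 were renamed through synonyms and 99 kept an old name. The limma model (intensity trend, 3 residual degrees of freedom) treats the miRNA as the block of each native and methylated pair, was adjusted by Benjamini-Hochberg over all features, and was tested on simulated data. Nothing says that arrays are separate cultures, so its p-values cover the spread between arrays alone, and their number limits the precision. Single arrays were compared without a test at 1.5-fold. Named genes are the 10 members, the 3 genes closest to each member that spanned 1 log2 unit, and the 2 lowest and 2 highest of each list on an array. CCNH and the cell type markers are named outside this rule. Members and lists were chosen with earlier results of these data known. Alternatives changed scaling, background, offset, detection filter, probe rule, source of values, variance prior, reference and arrays.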

Additional observations from a re-analysis of the deposited data

Results flagged for a closer look

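Methylated minus native, 3 genes differed by at least 1.5-fold in opposite directions in the let7a and miR-17 pairs, with 1 array per label. Both pairs rest on the discordant arrays. Across genes, let7a methylated correlated with miR-17 native (0.69) and miR-17 methylated with let7a native (0.56). An effect of methylation therefore cannot be read from these values. CDKN1A was at -1.26 for let7a and 1.81 for miR-17. CDC34 was at 1.22 for let7a and -1.39 for miR-17. CCND1 was at -1.21 for let7a and 0.70 for miR-17. The difference between the pairs was not tested for any of these genes.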

How the results depend on the processing

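Each label has 1 array, which limits every comparison with the control. No paired analysis was possible because no group has a second array, apart from the model's own miRNA term. All 11 differences past 1.5-fold kept their sign under the 7 processing alternatives, and 10 stayed past it. The count of values at least 1.5-fold below the control, 10, became 17 with the blank mean subtracted and 14 with median scaling. It became 15 with an offset of 16 and 15 with the authors' table. This count was 8 to 10 with any 1 miRNA array left out. It was 7 with the other 3 arrays of the same form in place of the control. The count above it, 1, became 0 with median scaling and with the mean of a gene's probes, 2 with the blank mean subtracted, 2 with an offset of 16, 6 with the authors' table, 5 against the other 3 arrays of the same form, and 0 or 1 with 1 array left out. Over the 16279 kept features, the authors' table puts the median difference from the control on miR-200c methylated at 0.548. With the other probe of CDK4, a choice made after seeing the data, let7a native was at -0.0137 for it.

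Counts of members past the threshold were 0 under all processing alternatives and with any 1 array left out. They became 3 for miR-200c, 3 for miR-21, 1 for let7a and 3 for miR-17 without the 2 discordant arrays. The number of all features past the threshold for miR-200c, 497, was 275 with no intensity trend and 321 with the authors' table, which gave 31 for miR-21, 3 for let7a, 10 for miR-17 and 12 for methylated minus native. Of the 50 estimates (10 genes in 5 contrasts) 22 exceeded their standard error. Without the discordant arrays 16 of the 50 turned sign, none past the threshold, and 5 of these had exceeded their standard error. These 5 were the let7a estimates of CDKN1A (0.30), CDKN1B (-0.17) and CCND1 (0.26), the miR-17 estimate of CDK4 (0.0246) and the methylated minus native estimate of WEE1 (0.10). The widest of the other turns were the miR-17 estimates of CDC34 (to 0.54) and CDKN1B (to 0.36). With some 1 array left out 30 of the 50 turned, none past the threshold, and the authors' table turned 11, all smaller than their standard error. With 1 array left out, let7a estimates ranged from -1.43 to 0.30 for CDKN1A, -0.17 to 0.68 for CDKN1B, -1.33 to 0.37 for CDC34, -0.30 to 0.0582 for CDC25A and -1.16 to 0.26 for CCND1. The miR-17 estimates ranged from -1.82 to 0.54 for CDKN1A, -1.12 to 0.00529 for CCND1, -0.36 to 0.0246 for CDK4, -1.24 to 0.54 for CDC34, -0.42 to 0.36 for CDKN1B and -0.20 to 0.22 for CCND3. The let7a turns for CDKN1A, CDKN1B and CCND1 came without the array labelled let7a methylated, and those for CDC34 and CDC25A without let7a native. The miR-17 turns for CDKN1A and CCND1 came without miR-17 native, and those for CDC34 and CDK4 without miR-17 methylated.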

Other observations

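The trimeric kinase that activates cyclin-dependent kinases is made of CDK7, cyclin H (CCNH) and MNAT1, 3 genes singled out here after their values were seen. MNAT1 was above the control on all 8 miRNA arrays, by 0.78 to 1.103 on the log2 scale, a side of the control that 11.2% of all features kept on every array. CDK7 lay between -0.20 and 0.61 and CCNH between -0.22 and 0.40, both highest on miR-200c native. The comparison shares 1 control array, and no difference was tested.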
